A study of Homo sapiens with 2 samples.

Results

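The nuclear genes for the subunits of mitochondrial oxidative phosphorylation were followed in untreated, wild-type HEK293T cells, an established line of human embryonic kidney origin that carries adenovirus sequence and expresses the large T antigen of SV40. Genes were taken by symbol: the NDUFA, NDUFB, NDUFC, NDUFS and NDUFV genes and NDUFAB1 of complex I, SDHA to SDHD of complex II, the UQCR genes of complex III, the COX5 to COX8 genes of complex IV, and the ATP5F1, ATP5M and ATP5P genes of complex V. These symbol patterns matched 97 of the 60664 genes in the files, of which 82 were protein-coding and 15 were processed pseudogenes of complex V genes. The 15 pseudogenes held 8 counts in all in replicate 1 and 3 in replicate 2, and they are not counted among the subunit genes below. The protein-coding genes were 37 for complex I, 4 for complex II, 8 for complex III, 15 for complex IV and 18 for complex V. NDUFA4 was counted with complex IV, where its protein is now placed, despite its complex I symbol. CYC1, COX4I1 and COX4I2 are also nuclear subunit genes, but their symbols fall outside the patterns, and they are named as such where used.

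Complexes I and II pass electrons from NADH and succinate to ubiquinone, complex III passes them on to cytochrome c, and complex IV passes them to oxygen. Complexes I, III and IV pump protons across the inner mitochondrial membrane, and complex V, the ATP synthase, uses the proton gradient to make ATP. All but complex II combine subunits of the nuclear genome with subunits of the mitochondrial genome. Several small subunits of complex IV exist in pairs of isoforms, with a general form and a form used in muscle, lung or testis.

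RNA-seq was made from 2 libraries of 1 group, and the labels give no contrast. The label for the cell line of replicate 2 reads HEK294T, while its title reads HEK293T, and the title was followed. Assigned counts were 18011638 in replicate 1 and 18575058 in replicate 2. With these totals, an undetected gene (count of 0) could still lie at up to 0.167 CPM in replicate 1 and 0.162 CPM in replicate 2, where CPM is the count scaled to the library total. Each ± gives an SD across replicates 1 and 2 (n = 2), and nothing in the labels says that they came from separate cultures, so this spread may be technical. Of markers for other cell types, 0 of 9 for striated muscle, 1 of 9 for kidney tubule and podocyte, 1 of 6 for testis and germ cell and 0 of 3 for endothelium reached 1 CPM in both libraries. Of the blood markers, 1 of 4 reached 1 CPM in both libraries. The kidney tubule markers AQP2, SLC12A3 and UMOD had 0 counts in both libraries. Of the nephron progenitor genes, 3 of 4 reached 1 CPM in both. These were SIX2 (456 and 443 counts), HOXD11 (892 and 903) and EYA1 (113 and 101), while PAX2 (23 and 15) did not. All 4 neuronal markers were detected as well, led by UCHL1 at 334 ± 5.81 TPM.

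Transcripts of the respiratory chain were abundant, and nearly every general subunit was present at a high level. At 1 CPM or more in both libraries, 76 of the 82 genes were detected, against 65.9% of all protein-coding genes. At 100 CPM or more, 61 of them were detected, against 7.64% of all protein-coding genes. The 6 genes below 1 CPM were COX6A2, COX6B2, COX7A1, COX7B2 and COX8C of complex IV and ATP5MGL of complex V. The median of the 82 genes was 181 ± 2.63 TPM (counts per base of exon, scaled to a common total), beside 2.86 ± 0.296 TPM for all protein-coding genes. In share of all counts, which has no length correction, they took 2.03% in replicate 1 and 2.04% in replicate 2. Complex I took 0.728% ± 0.00315, complex V 0.528% ± 0.000796, complex IV 0.413% ± 0.0033, complex III 0.324% ± 0.00365 and complex II 0.0409% ± 0.000996. The exact 95% binomial interval for complex II, the smallest of the shares, ran from 0.0393% to 0.0411% in replicate 1, and covers counting error only.

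**Figure D1:**
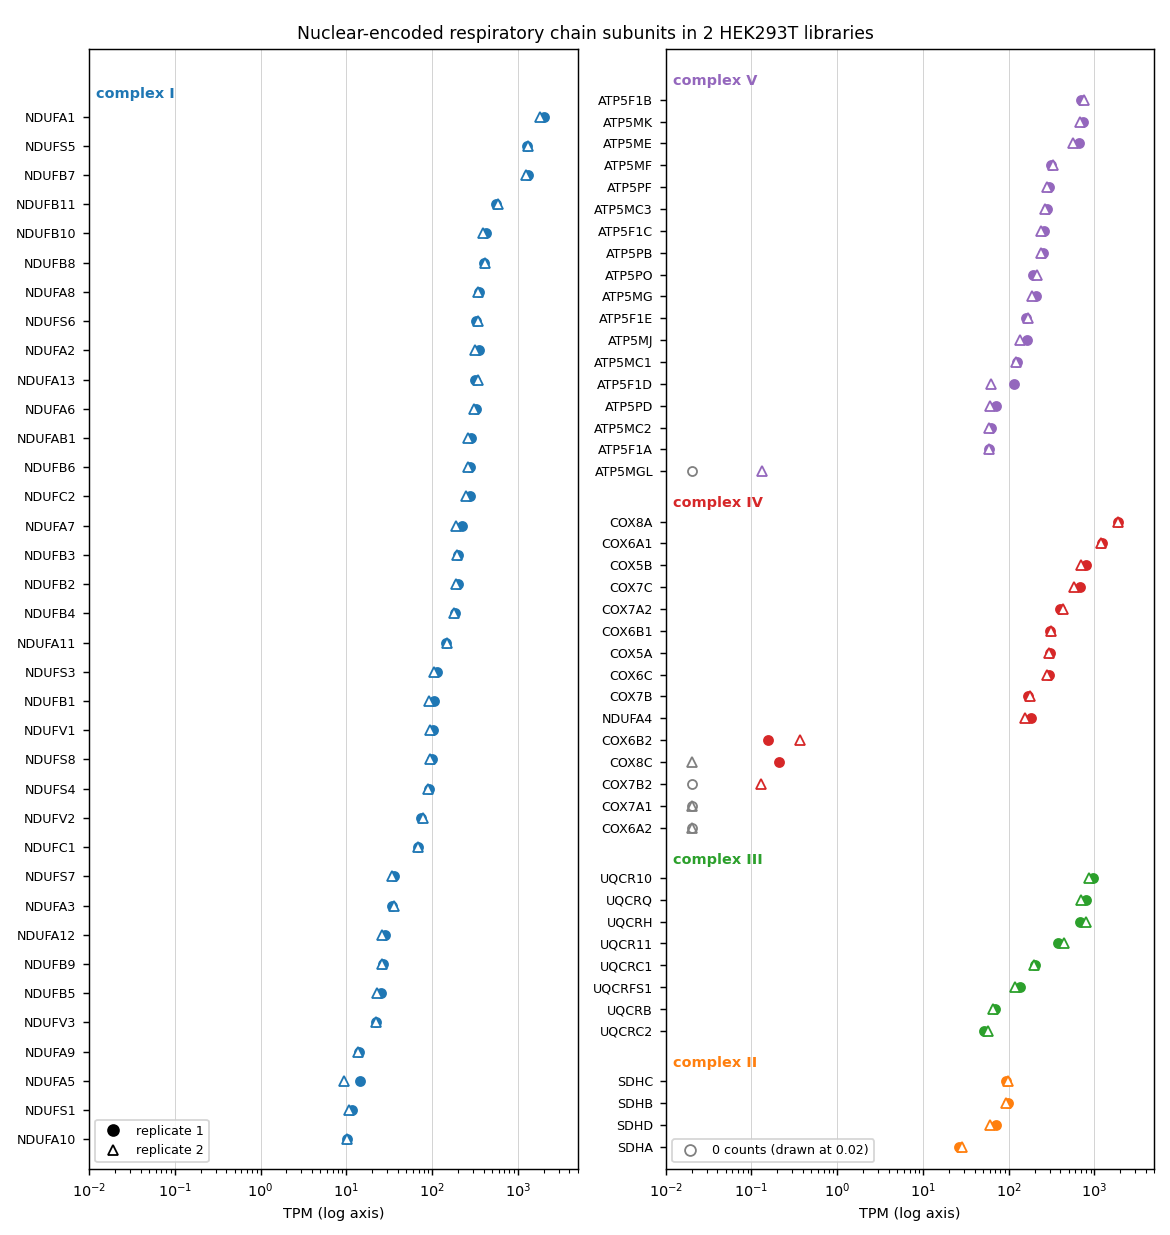
TPM of the protein-coding subunit genes by complex on a log axis, without 1 complex I gene that is not reported here, with replicate 1 as filled circles, replicate 2 as open triangles and 0 counts as grey open symbols at 0.02. The detected genes sit between 10.2 and 1940 TPM, and the other 6 lie below 1 TPM in both libraries.

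By the median TPM per complex, complex II stood lowest and complexes III and IV highest. The median gene of complex III had 307 ± 21.6 TPM, that of complex IV 289 ± 9.66, that of complex V 200 ± 0.795, that of complex I 148 ± 3.76 and that of complex II 79.0 ± 3.68. Complexes III and IV did not differ beyond their spread. In replicate 1 complex IV was at 295 TPM and complex III at 292, and in replicate 2 complex III was at 322 TPM and complex IV at 282. Complex II was lowest in each library, and also by CPM, by principal transcript length and by coding length. The 5 silent isoform genes of complex IV are part of its median, and its 10 detected genes alone had a median of 362 TPM.

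Complex I, NADH dehydrogenase, had all 37 of its nuclear genes detected and the widest range of levels. NDUFA1, a small membrane-arm subunit on chromosome X from 119871832 to 119876662, had 7525 (replicate 1) and 7243 (replicate 2) counts, or 1940 ± 154 TPM. NDUFS5, a small accessory subunit on chromosome 1 from 39026318 to 39034636, had 6132 and 6690 counts, or 1291 ± 11.8 TPM. NDUFB7, a subunit of the distal membrane arm on chromosome 19 from 14566078 to 14572066, had 6151 and 6354 counts, or 1291 ± 38.1 TPM. All 3 have short exon lengths, and these levels lay far above the complex I median in both libraries.

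At the other end, NDUFA10, an accessory subunit on chromosome 2 from 239892450 to 240025743, had 1718 and 1844 counts, or 10.2 ± 0.0243 TPM. NDUFS1, which carries iron-sulfur clusters and lies on chromosome 2 from 206114817 to 206159509, had 1251 and 1231 counts, or 11.3 ± 0.719 TPM. NDUFA5, an accessory subunit of the matrix arm on chromosome 7 from 123536997 to 123557904, had 1748 and 1202 counts, or 11.95 ± 3.73 TPM. Their low TPM goes with very long deposited exon lengths, 19359 bases for NDUFA10, 12174 for NDUFS1 and 13738 for NDUFA5, against 421 for NDUFA1. CPM gives no order of levels between genes, and as shares of the reads the complex I genes ran from 43.0 ± 3.08 CPM (NDUFA3) to 445 ± 39.5 CPM (NDUFA13).

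The 7 core nuclear subunits of complex I, which bind the flavin and the iron-sulfur clusters or form the ubiquinone site, were compared with the 30 accessory ones. NDUFS3, a core subunit of the ubiquinone module, had 4446 and 4494 counts, or 110 ± 4.92 TPM. NDUFV1, which binds NADH and flavin, had 4534 and 4501 counts, or 98.8 ± 5.69 TPM. NDUFS8, which carries iron-sulfur clusters, had 3914 and 4030 counts, or 97.0 ± 3.08 TPM. These 3 were close to each other, and NDUFS1, NDUFV2 and NDUFS7 lay lower.

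NDUFV2, the partner of NDUFV1, had 1756 and 2020 counts, or 76.8 ± 3.58 TPM. NDUFS7, which passes electrons to ubiquinone, had 2375 and 2404 counts, or 35.4 ± 1.55 TPM, and 51.4% of its exonic bases overlap other genes. The core median was 76.8 ± 3.58 TPM and the accessory median 202 ± 13.6 TPM, and the groups' ranges overlapped (11.3 to 110 TPM and 10.2 to 1940 TPM). Median exon lengths differed too, at 5057 bases for the core genes and 1938 for the accessory genes, and in CPM the medians were 131 ± 1.72 and 183 ± 0.201. The 11 NDUFB genes, all of the distal membrane arm, had a median of 198 ± 4.58 TPM. The median was 206 ± 22.7 TPM for the 13 accessory NDUFA genes (NDUFAB1 included) and 213 ± 6.17 for the accessory NDUFS and NDUFV genes. These medians were close by deposited exon length and further apart on other scales. In the same order they were 211 ± 3.13, 145 ± 6.03 and 109 ± 6.12 in CPM. By principal transcript length they were 345, 202 and 123 TPM, and by coding length 325, 282 and 206 TPM.

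Complex II, succinate dehydrogenase, which also serves in the citric acid cycle, is the one complex made wholly of nuclear subunits. SDHB, the iron-sulfur subunit on chromosome 1 from 17018722 to 17054032, had 1991 and 2005 counts, or 95.0 ± 4.51 TPM. SDHC, a membrane anchor on chromosome 1 from 161314381 to 161363206, had 1528 and 1754 counts, or 95.1 ± 4.29 TPM. SDHD, the other anchor, on chromosome 11 from 112086824 to 112120016, had 1730 and 1597 counts, or 66.0 ± 7.18 TPM. By deposited exon length, SDHB and SDHC did not differ beyond their spread, and SDHD lay below both in each library. This order depended on the length used. By coding length SDHD was at 129 TPM, SDHC at 119 and SDHB at 87.7. By principal transcript length SDHB was at 109 TPM, SDHD at 72.7 and SDHC at 7.58.

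SDHA, the flavoprotein on chromosome 5 from 218241 to 257082, had 1989 and 2370 counts, or 27.4 ± 1.96 TPM with an exon length of 8765 bases. The share of the reads was 119 ± 12.1 CPM for SDHA and 109 ± 1.84 CPM for SDHB, which did not differ beyond the spread. Per length SDHA stayed below SDHB with other lengths too, at 57.1 against 109 TPM by principal transcript and 40.3 against 87.7 TPM by coding length. The SDHA value is uncertain. A gene known only by an ID shares 1892 exonic bases with SDHA on the same strand (21.6% of the bases of SDHA) and had 3460 and 3839 counts. In addition, pseudogenes of SDHA are near-identical copies. Its 4 pseudogenes SDHAP1 to SDHAP4 together had 833 and 872 counts, equal to 41.9% and 36.8% of the counts of SDHA. SDHAP3 alone had 499 and 470 counts, more than any other pseudogene named after a subunit gene. The promoter of SDHA held a repeated motif, described with the promoters further on.

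Complex III, the cytochrome bc1 complex, had all 8 genes detected, and UQCR10, UQCRQ and UQCRH stood highest. UQCR10, a small subunit on chromosome 22 from 29767369 to 29770413, had 8269 and 7877 counts, or 916 ± 79.4 TPM. UQCRQ, which helps to hold cytochrome b and lies on chromosome 5 from 132866630 to 132868847, had 15547 and 14395 counts, or 747 ± 79.7 TPM. UQCRH, the hinge protein on chromosome 1 from 46303698 to 46316776, had 7968 and 9906 counts, or 734 ± 74.4 TPM. UQCRQ and UQCRH were alike within their spread, and UQCRQ had more counts than any other of the 82 genes in replicate 1.

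UQCRC2, a core protein on chromosome 16 from 21953288 to 21983660, had 2078 and 2464 counts, or 54.5 ± 3.71 TPM. UQCRB, a subunit near the ubiquinone site, had 7643 and 7701 counts, or 67.3 ± 3.17 TPM over an exon length of 12600 bases. UQCRFS1, the Rieske iron-sulfur protein on chromosome 19 from 29205320 to 29213151, had 3665 and 3442 counts, or 127 ± 12.3 TPM. The other core protein gene, UQCRC1, was at 201 ± 3.76 TPM and CYC1, the cytochrome c1 gene outside the symbol patterns, at 312 ± 4.54 TPM. The core and Rieske genes lay below UQCR10, UQCRQ and UQCRH, but those were named because they stood highest in the complex. By deposited exon length, the small subunit gene UQCRB lay below UQCRFS1 and UQCRC1 in both libraries. This order depended on the length used. By principal transcript length UQCRB was at 86.4 TPM, UQCRFS1 at 64.3 and UQCRC1 at 184. By coding length UQCRB was at 850 TPM, UQCRFS1 at 160 and UQCRC1 at 149. Whether the small subunit genes all lay above the core and Rieske genes thus depended on the length.

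Complex IV, cytochrome c oxidase, had 10 of 15 genes detected, and these 10 ranged from 166 to 1903 TPM. COX8A, the general form of the smallest subunit, on chromosome 11 from 63974620 to 63976543, had 8200 and 8834 counts, or 1903 ± 0.415 TPM. COX6A1, on chromosome 12 from 120438090 to 120440737, had 14289 and 14809 counts, or 1200 ± 32.6 TPM. COX5B, which binds zinc and lies on chromosome 2 from 97646062 to 97648383, had 9843 and 9386 counts, or 750 ± 64.4 TPM. COX8A shares 35.4% of its exonic bases with another gene and is uncertain. By deposited exon length, the lowest of the detected genes were NDUFA4 (166 ± 19.01 TPM) and COX7B (173 ± 5.77 TPM), which did not differ beyond their spread. By principal transcript length NDUFA4 was at 154 TPM and COX7B at 667. By coding length they were at 791 and 728 TPM, and COX5A was lower at 296.

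In each of 6 isoform pairs of complex IV, the general isoform supplied nearly all of the counts. The pair COX4I1 and COX4I2, which lies outside the symbol patterns, had 11095 and 12204 counts for COX4I1 and 0 in both libraries for COX4I2, the form known from lung. COX6A2, the form of heart and skeletal muscle on chromosome 16 from 31427731 to 31428360, was without a count in either library. COX7A1, the muscle form of COX7A2, on chromosome 19 from 36150922 to 36152449, was without a count in either, while COX7A2 had 6710 and 7789. These 3 tissue forms were therefore below the limit of detection in each library.

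Per base of exon, and against the 3 counts per library that a count of 0 allows, COX6A1 was at least 1683-fold higher than COX6A2 in replicate 1 and at least 1744-fold higher in replicate 2. COX7A2 was at least 682-fold higher than COX7A1 in replicate 1 and at least 792-fold higher in replicate 2. COX4I1 was at least 514-fold and 565-fold higher than COX4I2. The bounds differ between the pairs because they scale with the general gene's count and with both lengths. No striated muscle marker reached 1 CPM in both libraries, and MYH7, MYH2 and MYL2 had 0 counts. The summed level of the 9 muscle markers was 2.22 CPM in replicate 1 and 1.72 CPM in replicate 2.

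Of the 3 forms known from testis, COX6B2 alone was above 3 counts in both libraries. COX6B2, on chromosome 19 from 55349306 to 55354719, had 5 and 13 counts, and COX6B1 had 3658 and 3973. COX6B2 made up 0.137% of the pair's counts in replicate 1 (exact 95% interval 0.0443% to 0.318%) and 0.326% in replicate 2 (0.174% to 0.557%). These intervals overlap, so the libraries did not differ beyond counting error. COX7B2 had 0 and 1 counts beside 4457 and 5032 for COX7B, and COX8C had 1 and 0 beside 8200 and 8834 for COX8A.

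Per base of exon, COX6B1 was 1988-fold higher than COX6B2 in replicate 1 (counting interval 851 to 6126) and 831-fold higher in replicate 2 (485 to 1561). Of the 6 testis and germ cell markers, SYCP3 alone reached 1 CPM in both libraries, with 128 counts in replicate 1 and 35 in replicate 2. PRM1, PRM2 and TNP1 had 0 counts in both. SYCP3 was lower in replicate 2, while the COX6B2 share did not differ between the libraries beyond counting error. A link between the 2 genes was not tested.

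**Figure D2:**
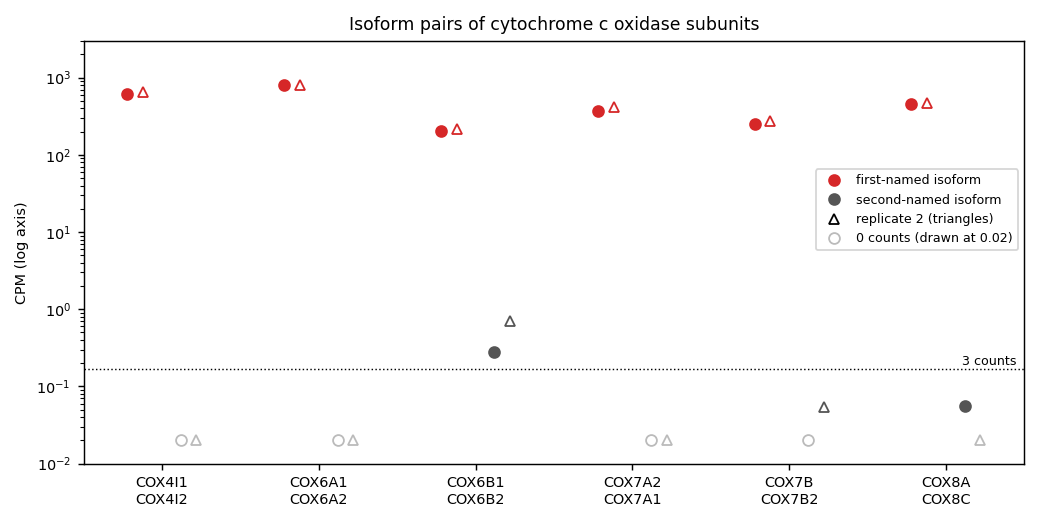
CPM of both genes of each isoform pair on a log axis, with the first-named gene in red and the second in grey, replicate 1 as circles and replicate 2 as triangles, and 0 counts drawn at 0.02. The first-named genes sit between 203 and 797 CPM, and of the second-named genes only COX6B2 lies above the dotted line at 3 counts.

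Complex V, the ATP synthase, had 17 of 18 genes detected. ATP5F1B, the catalytic beta subunit on chromosome 12 from 56638175 to 56645984, had 13779 and 15768 counts, or 728 ± 31.2 TPM. ATP5MK, a small membrane subunit on chromosome 10 from 103389041 to 103396492, had 5882 and 5870 counts, or 703 ± 37.9 TPM. ATP5ME, the membrane subunit e on chromosome 4 from 672436 to 674330, had 5364 and 4932 counts, or 612 ± 68.2 TPM. By deposited exon length, ATP5F1B and ATP5MK did not differ beyond their spread. By principal transcript length they were at 504 and 1014 TPM, and by coding length at 343 and 1246 TPM. ATP5ME shares 61.3% of its exonic bases with another gene and is uncertain.

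ATP5MGL, a copy of ATP5MG on chromosome 22 from 42639803 to 42640601, had 0 and 1 counts. ATP5F1A, the alpha subunit on chromosome 18 from 46080248 to 46104334, had 5626 and 6019 counts, or 58.9 ± 0.277 TPM. Alpha and beta are present in equal number in the enzyme, and their TPM values differed widely. The deposited exon lengths were 10908 bases for ATP5F1A and 2238 for ATP5F1B, and in CPM ATP5F1A had 318 ± 8.26 and ATP5F1B 807 ± 59.3. By role, the 5 genes of the catalytic F1 head had a median of 164 ± 6.04 TPM. The 4 genes of the peripheral stalk (ATP5PB, ATP5PD, ATP5PF, ATP5PO) had a median of 223 ± 2.58 TPM. This order depended on the scale. In CPM the medians were 318 ± 8.26 for the head and 302 ± 13.8 for the stalk. By principal transcript length they were 299 and 295 TPM, and by coding length 213 and 334 TPM. The 5 detected genes of other small membrane subunits ranged from 148 to 703 TPM.

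The c ring, which turns as protons pass, is built from a single mature protein that 3 separate genes encode with different targeting sequences. ATP5MC3, on chromosome 2 from 175176258 to 175181710, had 9554 and 9657 counts, or 273 ± 12.3 TPM. ATP5MC1, on chromosome 17 from 48892765 to 48895871, had 2885 and 2948 counts, or 123 ± 4.58 TPM. ATP5MC2, on chromosome 12 from 53632726 to 53677408, had 2135 and 2147 counts, or 60.6 ± 2.94 TPM. The order of the 3 genes was the same in both libraries, and each step was larger than the spread.

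Within the coding sequence, reads of the c-ring genes can be told apart where the genes differ, and the start of their shared coding end, taken from the GENCODE 29 transcripts, is shown here as 90 bases each, 5′ to 3′. Capitals mark positions at which the 3 genes do not all have the same base.
ATP5MC1: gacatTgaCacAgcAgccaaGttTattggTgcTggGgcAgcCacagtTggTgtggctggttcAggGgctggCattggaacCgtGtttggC
ATP5MC2: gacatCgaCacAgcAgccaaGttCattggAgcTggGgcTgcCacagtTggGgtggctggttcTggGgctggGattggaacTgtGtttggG
ATP5MC3: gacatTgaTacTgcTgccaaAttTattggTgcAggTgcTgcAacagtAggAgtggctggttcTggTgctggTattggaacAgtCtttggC
In these 90 bases, 19 positions varied. Over the whole shared coding end, ATP5MC1 and ATP5MC2 were identical at 200 bases (88.9%), and ATP5MC3 was identical to each of them at 183 bases (81.3%). The longest run without a difference was 17 bases between ATP5MC2 and either ATP5MC1 or ATP5MC3, and 11 bases between ATP5MC1 and ATP5MC3. A read that covers more than 17 of these bases in a row therefore holds at least 1 difference between any 2 of the genes.

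The order of the subunits by TPM depended strongly on the deposited exon length, which merges all annotated exons of a gene. Among the 76 detected genes the range was 191-fold in TPM, from NDUFA10 to NDUFA1, and 19.1-fold in CPM, from NDUFA3 to UQCRQ. Spearman's rho of exon length with TPM was -0.825 and with CPM -0.296 (Pearson's r on log2 scales -0.856 and -0.332). These are descriptions across genes of the same libraries, and TPM contains the length by construction. With the length of the principal transcript in GENCODE 29, chosen as an alternative after seeing the data, NDUFA10 was at 22.7 TPM in place of 10.2, and NDUFA1 at 606 in place of 1940.

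**Figure D3:**
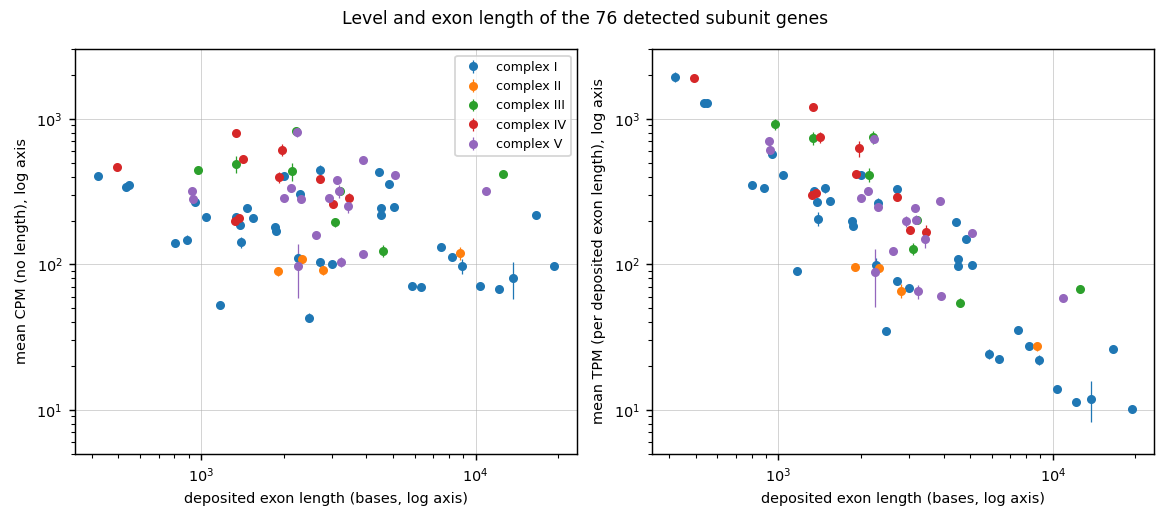
Mean CPM (left) and mean TPM (right) of the 76 detected subunit genes against deposited exon length, all axes logarithmic, with bars for the SD over both libraries and colours for the complexes. The points fall steeply with length in TPM (Spearman's rho -0.825) and weakly in CPM (-0.296).

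Against the genes of the mitochondrial genome, the nuclear genes took the larger share of counts for complexes I, III and V and the smaller share for complex IV. These are shares of counts and not levels per gene. The nuclear sums hold the genes of the symbol patterns alone, without COX4I1 (636.5 CPM) for complex IV and CYC1 (303.1 CPM) for complex III. With those 2 genes the mitochondrial shares of these complexes would be lower. The 7 mitochondrial genes of complex I took 39.0% ± 0.116 of the counts of that complex, and MT-CYB took 16.8% ± 1.04 of complex III. MT-CO1, MT-CO2 and MT-CO3 took 73.4% ± 0.476 of complex IV, and MT-ATP6 and MT-ATP8 33.85% ± 1.31 of complex V. The nuclear sums for complex IV were 4154 CPM in replicate 1 and 4107 CPM in replicate 2, while its 3 mitochondrial genes summed to 11250 and 11510 CPM. Neighbouring mitochondrial genes overlap, so a read there can be counted for both.

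**Figure D4:**
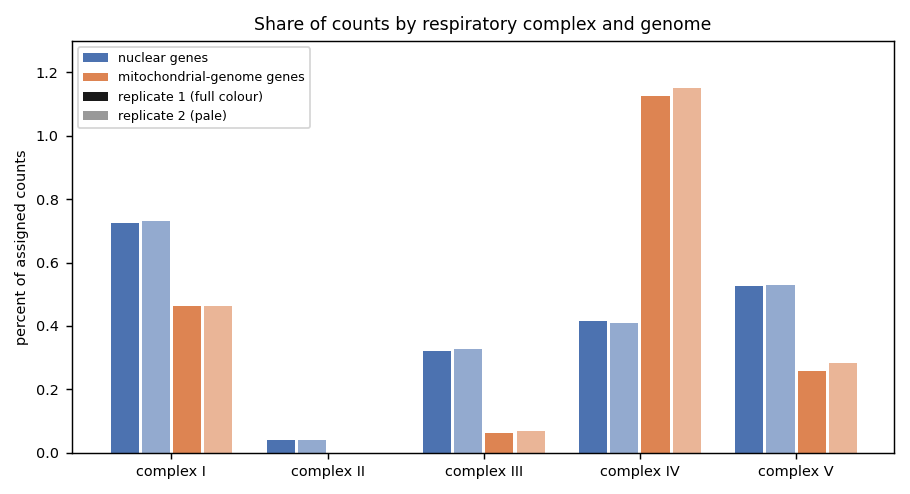
Percent of assigned counts taken by nuclear (blue) and mitochondrial-genome (orange) genes of each complex, replicate 1 in full colour and replicate 2 pale. The nuclear genes are those of the symbol patterns, without COX4I1 and CYC1. Complex IV is the only complex whose orange bars exceed the blue ones (1.125% and 1.151% against 0.415% and 0.411%), and complex II has nuclear genes alone.

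Between the libraries the subunit genes kept close to each other. The log2 ratio of replicate 2 to replicate 1, after TMM scaling, had a median of 0.02 over the 76 genes that averaged at least 50 counts, beside 0.00 over all 14704 such genes. It lay within 0.25 for 71 of the 76, against 62.9% of all genes and 77.3% of protein-coding genes in the same range of mean counts. At 0.5 log2 or more, 2 of the 76 were lower in replicate 2, against 8.84% of all genes, or 4.29% of protein-coding genes in that range. In the other direction 0 of 76 passed 0.5 log2, against 2.86% of all genes and 0.0504% of protein-coding genes in that range. None passed 1 log2 in either direction, against 1.92% lower and 0.143% higher of all genes, and 0.58% lower and 0.0% higher of the 3967 protein-coding genes in that range. These counts of 0 are near the shares at the same range of counts. The ratio compares 1 library with 1 library, so it has no replicate check and no p-value. The counts of the 76 genes still differed between libraries by more than counting noise, with a chi-square per degree of freedom of 23.4.

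ATP5F1D, the delta subunit of the F1 head on chromosome 19 from 1241746 to 1244825, stood furthest apart. Its counts were 2268 in replicate 1 and 1305 in replicate 2, a log2 ratio of -0.81 with a 95% counting interval from -0.91 to -0.71. NDUFA5, with 1748 and 1202 counts, followed at -0.55 (-0.66 to -0.45). After these, ATP5MJ (-0.16), COX7C (-0.16) and NDUFA4 (-0.14) were the lowest, at much smaller sizes. The other 4 genes of the F1 head lay between -0.01 (ATP5F1C) and 0.18 (ATP5F1B), so ATP5F1D was apart from its own subcomplex.

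Higher in replicate 2 were UQCR11, a small subunit of complex III with 7076 and 8954 counts (0.33), and UQCRH (0.30). SDHA (0.24) and ATP5PO (0.24) were also among the 5 highest. Complex III as a whole had 6 of 8 genes within 0.25 log2, and UQCRQ (-0.125) went the other way from UQCR11 and UQCRH. The genes of 1 complex thus did not all move in the same direction.

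**Figure D5:**
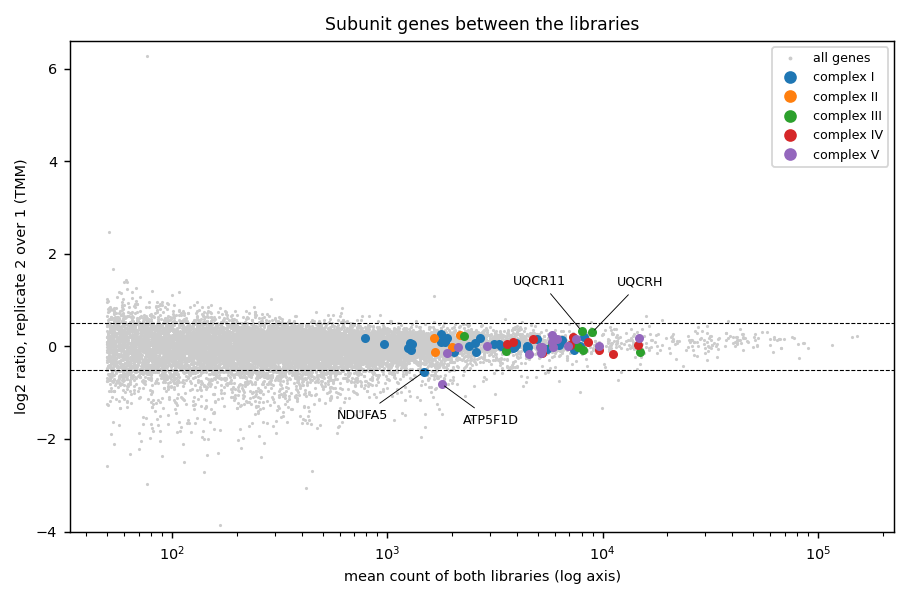
Log2 ratio of replicate 2 to replicate 1 against the mean count (log axis) for all genes that averaged at least 50 counts (grey) and the 76 subunit genes (coloured by complex), with dashed lines at 0.5 log2. ATP5F1D (-0.81) and NDUFA5 (-0.55) are the subunit genes below the lower line, and 0 lie above the upper one.

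Exons shared with neighbouring genes affect both the subunit genes and their neighbours. Exonic overlap with a neighbour was found for 43 of the 82 genes, and it covered at least 25% of the gene's bases in 11 of them, beside 11.2% of all protein-coding genes. In 23 of 65 such overlapping pairs, the smaller count of the pair in replicate 1 was at least 0.8 times the larger. GDF9, the gene of an oocyte growth factor, shares 255 bases with UQCRQ on the opposite strand and had 13507 and 13277 counts. MYL5, a myosin light chain gene, shares 571 bases with ATP5ME on the opposite strand and had 5708 and 5326 counts, beside 5364 and 4932 for ATP5ME. PTCD1 shares 53 bases with ATP5MF and had 5882 and 6934 counts, beside 5789 and 6508. How many of these reads came from which gene cannot be told apart in the counts. The 187 pseudogenes named after subunit genes, 37 of them with any count, held 983 counts in replicate 1 and 1032 in replicate 2, equal to 0.269% and 0.273% of the counts of the subunit genes. Of these, 833 and 872 were those of the SDHA pseudogenes.

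Assembly factors, the proteins that build the complexes without staying in them, were all detected, 47 of 47, at lower levels than the subunits. Their median was 44.9 TPM, beside 181 TPM for the subunit genes. For complex I, 14 of 14 were detected with a median of 21.1 TPM, from NUBPL (4.09 ± 0.986 TPM), which delivers iron-sulfur clusters, and NDUFAF5 (5.31 ± 0.016) to NDUFAF3 (164 ± 15.8) and NDUFAF8 (330 ± 49.7). For complex IV, 20 of 20 had a median of 57.6 TPM, from COX18 (1.36 ± 0.418), which inserts MT-CO2 into the membrane, and the heme synthesis gene COX10 (3.42 ± 0.249) to the copper chaperone gene COX17 (144 ± 14.6) and COX14 (228 ± 17.9). The 6 factors of complex III had a median of 29.5 TPM, with LYRM7, which serves the Rieske protein, at 5.17 ± 2.42, UQCC1 at 15.9 ± 0.935, UQCC2 at 52.6 ± 1.17 and UQCC3 at 112 ± 2.92.

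The 4 factors of complex II had a median of 69.0 TPM, close to the complex II subunits, with SDHAF4 at 13.3 ± 0.494, SDHAF2 at 59.8 ± 5.07, SDHAF1 at 78.2 ± 11.2 and SDHAF3 at 87.6 ± 17.4. For complex V, ATPAF2 had 7.60 ± 0.698 TPM, ATPAF1 32.4 ± 3.94 and TMEM70 55.6 ± 4.67. Of all 47, 2 were lower in replicate 2 by 0.5 log2 or more, against 8.84% of all genes, and 0 were higher, against 2.86%. LYRM7 had 373 and 202 counts (-0.89) and COX18 101 and 70 (-0.53). UQCRFS1, the Rieske protein that LYRM7 serves, had a ratio of -0.10.

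Of the related genes outside the symbol patterns, the highest were ATP5IF1, the inhibitor of the ATP synthase (514 ± 20.8 TPM), CYC1 and COX4I1 (267 ± 3.98). NDUFA4L2, the paralogue of NDUFA4 known from hypoxia, was at 3.37 ± 0.38 TPM and UQCRHL, a copy of UQCRH, at 2.35 ± 0.199. Of the 9 transcriptional regulators of the subunit genes, all were detected, with a median of 9.89 TPM. The coactivator genes PPARGC1A (0.263 ± 0.0437 TPM) and PPARGC1B (0.691 ± 0.109) were lowest. GABPA, an ETS factor gene, was highest at 92.8 ± 4.56 TPM and ESRRA followed at 37.2 ± 6.3. GABPA shares 692 bases with ATP5PF on the opposite strand and had 4808 and 4830 counts beside 5190 and 5223 for ATP5PF, so its level is uncertain. YY1 was lower in replicate 2, with 2390 and 1703 counts (-0.50), the 1 regulator of the 8 above the count filter to pass 0.5 log2, by a small margin and beside 8.84% of all genes.

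Promoters of the subunit genes were searched for motifs of factors known to act on them, in windows from 250 bases before to 50 after each RefSeq start site on build GRCh38.p14. Windows were found for 67 of the 82 genes. The NRF1 motif, the letters GCGCA and GCGC with any base between them on either strand, was in the windows of 17 of 67 (25.4%), beside 9.73% of 15301 protein-coding genes and 13.4% of the 10375 detected ones. The ETS motif CCGGAAGT was in 12 (17.9%), beside 7.1% of all and 10.01% of detected genes. The YY1 motif AAGATGGCG was in 9 (13.4%, beside 3.28% of all and 4.69% of detected genes) and the TATA letters TATAAA in 7 (10.4%, beside 12.4% of all and 8.18% of detected genes). Matches of different motifs did not overlap in any window of a subunit gene. A match is a description of the letters and not a site of binding, and genes share base composition, with a median GC content of 60.3% in the windows of subunit genes and 62.3% in all.

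By complex, the NRF1 letters were in the windows of 6 of 32 genes for complex I, 2 of 3 for complex II, 4 of 7 for complex III, 1 of 12 for complex IV and 4 of 13 for complex V. The 1 gene of complex IV was COX8C, which had 1 and 0 counts. Detected genes with the motif had a median of 166 TPM (16 genes) and those without it 206 TPM (47 genes). In CPM the order was the other way, at 222 with the motif and 217 without it. The stretches below show 1 match each for 6 genes named above, as 30 bases 5′ to 3′ on the strand of the gene, with the matched letters in capitals.
ATP5F1C, chr10:7788145-7788174: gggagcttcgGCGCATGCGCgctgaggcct
SDHD, chr11:112086753-112086782: agctgtgtttGCGCATGCGCgacgggtgtg
UQCR10, chr22:29767351-29767380: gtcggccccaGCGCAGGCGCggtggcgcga
UQCR11, chr19:1605453-1605482: cgccgcggccGCGCCTGCGCagtgtagccg
UQCRC1, chr3:48609674-48609703: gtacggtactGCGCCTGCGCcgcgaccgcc
UQCRFS1, chr19:29213163-29213192: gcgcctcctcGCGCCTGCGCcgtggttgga
These 6 include 4 of complex III, whose windows held the motif in 4 of 7 genes.

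The SDHA window held the motif 4 times, more than that of any other subunit gene. Each copy had the letters GCGCAGGCGC, and neighbouring copies were 49, 49 and 49 bases apart. Of all 15301 protein-coding genes, 9 (0.0588%) had 4 or more matches in a window. The 4 stretches are shown to let the repeat be seen.
SDHA, chr5:218144-218173: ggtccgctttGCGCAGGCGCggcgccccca
SDHA, chr5:218193-218222: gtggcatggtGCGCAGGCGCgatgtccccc
SDHA, chr5:218242-218271: ccggcgtggtGCGCAGGCGCggtatccccc
SDHA, chr5:218291-218320: ccggtgtggtGCGCAGGCGCagtctgcgca
The matches began 166, 117, 68 and 19 bases before the RefSeq start site. SDHD was the other complex II gene with the motif, in 1 copy.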

How the data were processed

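Per the labels' protocols, TRIzol was used to extract RNA from untreated HEK293T cells, and DNase I to remove DNA. The cDNA was primed with oligo(dT), freed of RNA and primers with a nuclease, sonicated and built into libraries from single strands, per the same protocols. The values are raw counts per gene as deposited by the authors, per the file headers, with 1 library per file. Build GRCh38 and the tools featureCounts 2.0.3, bcl2fastq 2.17 and Trim Galore 0.6.7 are listed in the submitters' processing notes. Not given in the sources used here are the aligner, the release of the annotation and how featureCounts treated strand and overlaps, so reads of overlapping genes cannot be assigned.

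CPM is the count scaled to the library total. TPM was computed from the counts and the deposited exon length. Detection required at least 1 CPM in each library. Log2 ratios used TMM factors of edgeR 4.0.16 in R 4.3.3 (1.011 and 0.9894), a prior count of 2 and genes averaging at least 50 counts, and the code was tested on simulated data. With 1 group there is no test of a contrast. Intervals are exact 95% binomial or Poisson intervals and cover counting error only, since PCR copies could not be told from separate molecules. Counting noise did not account for the difference between the libraries (chi-square per degree of freedom 12.7 over 21018 genes) and they were kept as separate samples.

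Symbols came from a gene name table and matched 60463 of 60664 IDs. Gene types, principal transcripts and coding sequences came from GENCODE 29, and promoter windows from RefSeq on GRCh38.p14. The members and lists were chosen with earlier results of these data known. Named genes were the 3 highest and 3 lowest of each complex by TPM, all isoform pairs, the c-ring genes, the core complex I and complex II subunits, the 5 lowest and 5 highest ratios, all undetected genes and the 2 highest and 2 lowest of each pathway list. A gene that this rule selects is not reported here by name. Others named, such as the overlapping neighbours, were chosen after their values were seen. Alternatives were each library alone, other length corrections, overlap and pseudogene filters, DESeq2 1.42.0 size factors, library totals, other count filters and another prior count.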

Additional observations from a re-analysis of the deposited data

How the results depend on the processing

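No paired analysis was possible because there is 1 group. Of 105 alternative values, 83 kept within the spread or count limits, 22 moved and 0 reversed. Most of these values are single levels, shares or counts, which cannot reverse. The median log2 ratio changed sign, from 0.021 with TMM to -0.009 with library totals, and was counted as kept. Orders of genes or complexes were not among the 105 values, and some orders changed with the length or scale. With CPM in place of TPM, the medians were 181 for complex I, 102 for II, 414 for III, 258 for IV and 287 for V. With principal transcript length they were 203, 64.9, 369, 550 and 349 TPM, and with coding length 270, 102, 1030, 719 and 345 TPM, both chosen after seeing the data. Complex II stayed lowest in all 3, while IV exceeded III with principal transcript length and lay below V in CPM. Counting NDUFA4 with complex I gave 157 TPM for complex I. For complex V, leaving out genes that share 25% or more of their exons gave 177 TPM, including its 15 pseudogenes gave 58.8 TPM, and detected genes alone, chosen after seeing the data, gave 211 TPM. Detected genes alone gave 362 TPM for complex IV.

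Without a count filter, 3 genes in place of 0 were higher in replicate 2 by 0.5 log2 and 1 in place of 0 by 1 log2, since genes with a few counts then enter. With each library left out in turn, the median ran from 146 to 151 TPM for complex I, 76.4 to 81.6 for II, 292 to 322 for III, 282 to 295 for IV and 199 to 201 for V. COX6B2 ran from 0.137% to 0.326% of its pair. Coding length from a protein table was not run, and GENCODE coding length stands in its place. Depth limits genes with a few counts, such as the silent isoforms, and a subunit gene's ratio carried a counting error of ±0.06 log2 (median of the 95% intervals).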
